A study of Mus musculus with 4 samples.

Results

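The Kynu/Igf1 nuclei are 64 nuclei of glutamatergic neurons from the mouse deep cerebellar nuclei, out of 480 nuclei in a deposited table that the submitters named vglut2 and 21494 nuclei in the whole series. They were chosen by their own expression values. Counts of each nucleus were scaled to 10000, log-transformed and expressed as z-scores over the 480 nuclei, and the z-scores were averaged over 5 gene sets. A nucleus was a member if the set Kynu, Igf1, Pde1a, Sulf1 and Trpc4 had its highest score and that score was at least 0.3. The same rule gave 103 Maf/Kitl nuclei, 65 Lmx1a/Pax6 nuclei, 65 Rorb/Sema3a nuclei and 37 Zfhx3/Zfhx4 nuclei, and in 146 nuclei no score reached 0.3. The 416 nuclei outside the Kynu/Igf1 set are called the other vglut2 nuclei.

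Single-nucleus RNA was sequenced on the 10x Genomics platform from tissue micro-dissected from cerebellar slices of C57BL/6J mice, with no sorting of nuclei recorded in the labels. The study used 2 Cre lines with 2 libraries each, both crossed with Ai32, which carries a Cre-dependent channelrhodopsin fused to EYFP in the Rosa26 locus. Ucn3-Cre replicate 1 (Tg(Ucn3-cre)KF31Gsat) was female, 3 months old and extracted on an iodixanol gradient, and replicate 2 was male, 3 months old and extracted on a sucrose cushion. vGluT2-Cre replicate 1 (an Slc17a6-icre transgene) was male and 2 months old, and replicate 2 was female and 2.5 months old, both on a sucrose cushion. All 4 libraries carry Cre and Ai32, and no gene was knocked out. The labels do not say whether each library came from 1 animal or several, so p-values measure the spread between these libraries only.

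Glutamatergic neurons of the deep cerebellar nuclei are the main output of the cerebellum. They fire spontaneously, receive inhibition from Purkinje cells and project to the thalamus, midbrain and hindbrain. Of the genes that chose the members, Kynu encodes kynureninase, an enzyme of tryptophan breakdown, Igf1 a secreted growth factor, and Pde1a a phosphodiesterase that calcium and calmodulin activate. Sulf1 encodes an extracellular enzyme that removes 6-O-sulphate from heparan sulphate, and Trpc4 a cation channel opened downstream of G protein-coupled receptors.

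The Kynu/Igf1 nuclei held fewer counts than the rest of the table. Their median was 6053 counts and 3070 genes per nucleus, against 10409 counts and 4219 genes in the other vglut2 nuclei, and the difference went the same way in each library. Summed member counts were 83800 and 63601 in Ucn3-Cre replicates 1 and 2 and 233535 and 42693 in vGluT2-Cre replicates 1 and 2. Scrublet marked 0 of the 64 members as doublets and 7 of the 480 nuclei. Between 3 and 8 cell barcodes were shared by each pair of libraries, none of them in a member.

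Membership by this score is a range and not a cell type with a sharp border. The median member scored 1.25 and the highest 2.49. The lowest members scored 0.305, 0.325 and 0.326, and the highest nuclei outside scored 0.24, 0.2 and 0.173. Scores of 0.3 to 0.5 were held by 8 members, 22 members also reached 0.3 for another set, and 20 nuclei with a Kynu/Igf1 score of at least 0.3 scored higher for another set.

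Kynu/Igf1 nuclei were found in all 4 libraries, at shares that lay far apart between libraries of the same line by the rule as stated. They were 17 of 88 vglut2 nuclei in Ucn3-Cre replicate 1 (19.3%, 95% Clopper-Pearson interval 11.7 to 29.1%) and 10 of 149 in replicate 2 (6.71%, 3.27 to 12%). In the vGluT2-Cre line they were 32 of 161 in replicate 1 (19.9%, 14.0 to 26.9%) and 5 of 82 in replicate 2 (6.10%, 2.01 to 13.7%). Both replicates 1 lay above both replicates 2, and the intervals cover counting error only. The share averaged 13.0% ± 8.91 in Ucn3-Cre and 13.0% ± 9.74 in vGluT2-Cre libraries (SD, n = 2 each; two-sided exact permutation p = 1). It averaged 12.7% ± 9.35 in female and 13.3% ± 9.31 in male libraries (SD, n = 2 each; exact permutation p = 0.667). Neither difference exceeded the spread within a group, and 2 libraries against 2 cannot give a p below 2 of 6.

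**Figure D1:**
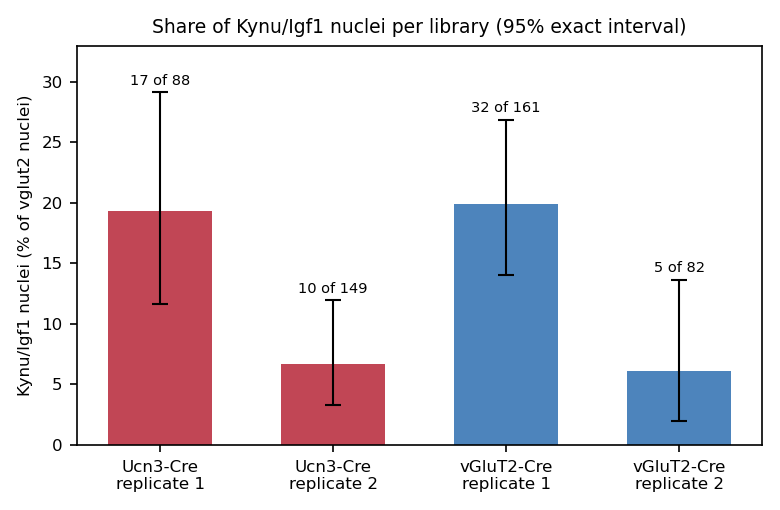
Share of Kynu/Igf1 nuclei among the vglut2 nuclei of each library, in percent, with 95% exact intervals as error bars and the counts above the bars. The share was 19.3 and 19.9% in the replicate 1 libraries and 6.71 and 6.10% in the replicate 2 libraries.

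The 5 genes that chose the members are given first, as levels with no test. Levels are CPM, the summed counts of a library and group relative to their total, scaled by TMM, and values of single libraries stand in the order Ucn3-Cre replicates 1 and 2, vGluT2-Cre replicates 1 and 2. Igf1 (GRCm38 chromosome 10, 87858265 to 87937042, plus strand) had 268, 249, 301 and 253 CPM in Kynu/Igf1 nuclei, against 13.6, 24, 19.5 and 21.8 CPM in the other vglut2 nuclei. It was the most even of the 5 across libraries, at 268 ± 23.7 CPM in members (SD, n = 4). Kynu (chromosome 2, 43555329 to 43682715, plus strand) had 23.3, 87.7, 154 and 168 CPM in members, against 6.78, 3.63, 3.36 and 2.42 CPM in the other vglut2 nuclei. Its level was lowest in Ucn3-Cre replicate 1, where 2 of 17 members held a count of Kynu, all without Pde1a.

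Pde1a (chromosome 2, 79834453 to 80129458, minus strand) averaged 121 ± 45.9 CPM in members and 1.34 ± 2.69 CPM in the other vglut2 nuclei (SD, n = 4 each), where 3 of 4 libraries had 0. Sulf1 (chromosome 1, 12692277 to 12861192, plus strand) averaged 212 ± 93 CPM in members and 22 ± 5.24 CPM in the others, and was lowest in vGluT2-Cre replicate 2 at 84.2 CPM. Trpc4 (chromosome 3, 54156035 to 54318471, plus strand) averaged 66.1 ± 41.6 CPM in members and 3.05 ± 0.316 CPM in the others, and was highest in Ucn3-Cre replicate 1 at 128 CPM. The groups did not overlap for any of the 5 genes, as the choice of members requires.

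Most members were placed by a few detected genes. A count of 1 of the 5 genes was present in 11 members, of 2 genes in 33, of 3 genes in 19 and of 4 genes in 1. In the other vglut2 nuclei 271 held none of the 5, 129 held 1, 14 held 2 and 2 held 3. Igf1 was counted in 57.8% of members, 17.3% of the other vglut2 nuclei and 0.69% of the 21014 nuclei outside the table, which had a median of 2230 counts. Kynu was counted in 29.7%, 2.64% and 0.267% of these groups, and Sulf1 in 53.1%, 12.5% and 5.1%.

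To see each gene apart from its own part in the rule, members were chosen again by the other 4 genes of the set. Kynu then averaged 82.3 ± 53.9 CPM in the 72 nuclei chosen without it and 6.07 ± 4.44 CPM in the rest (SD, n = 4 each), a ratio of the means of 13.6. The ratio was 7.79 for Igf1, 8.10 for Pde1a, 6.66 for Sulf1 and 6.89 for Trpc4. Each of Kynu, Igf1, Pde1a and Sulf1 was higher in the chosen nuclei in 4 of 4 libraries, and Trpc4 in 3 of 4. These are the same nuclei and counts, so the ratios describe how far the genes go together and are no test. Of the genes of the other sets, Maf, a transcription factor, averaged 2.09 ± 4.18 CPM in members and 35.8 ± 1.83 CPM in the others. Cpne4, a calcium-dependent membrane-binding protein of the Maf/Kitl set, averaged 157 ± 85.5 CPM in members and 106 ± 37.4 CPM in the others, and Rorb, a nuclear receptor, had 0 counts in members against 13.3 ± 4.09 CPM.

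Kynu and Pde1a were seldom counted in the same nucleus. Of the 19 members with Kynu, 18 also held Igf1 but 2 held Pde1a, while 16 of the 27 members with Pde1a held Sulf1. All of these are genes of the rule, so how they go together within members is shaped by it. By Kynu and Pde1a there were 17 members with Kynu and no Pde1a, 25 with Pde1a and no Kynu, 20 with neither and 2 with both. Their median depths were close, at 6011, 6225 and 5416 counts for the first 3 kinds. All 3 kinds came from all 4 libraries, with 11, 13 and 7 nuclei from vGluT2-Cre replicate 1 and 2, 6 and 9 from Ucn3-Cre replicate 1. This split and the genes set beside it were chosen after their values were seen, and cells are no replicates, so the following values are descriptions with no test.

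Igf1 is a gene of the rule, so the choice of members shapes its split. It was counted in 17 of 17 Kynu nuclei, 7 of 25 Pde1a nuclei and 12 of 20 with neither. Lamb1, a laminin chain of the basement membrane, was counted in 9, 3 and 1 of these nuclei, and in 5.29% of the other vglut2 nuclei. Cdh12, a type II cadherin, was counted in 13, 9 and 5 of them, and in 75.2% of the other vglut2 nuclei. Detection of these 3 genes was thus most frequent in the Kynu nuclei.

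Hs3st4 and Kcnt2 were counted most often in the Pde1a nuclei, and Gpc6 least often in the Kynu nuclei. Hs3st4, a heparan sulphate 3-O-sulphotransferase, was counted in 0 of 17 Kynu nuclei, which at this depth allows up to 17.6% of nuclei with a count, in 12 of 25 Pde1a nuclei and in 2 of 20 with neither, against 9.13% of the other vglut2 nuclei. Gpc6, a glypican that carries heparan sulphate chains, was counted in 3, 20 and 9 nuclei of the 3 kinds, and in 79.3% of the other vglut2 nuclei. Its pooled levels in the 3 kinds were 58.6, 562 and 437 CPM. The sodium-activated potassium channel gene Kcnt2 was counted in 1, 9 and 3 nuclei of these kinds, and in 7.21% of the other vglut2 nuclei. Genes spread over all 3 kinds were Htr2c, a serotonin receptor, in 16, 23 and 16 nuclei, the GABA receptor subunit gene Gabrb1 in 17, 21 and 16, and Slc17a6 in 14, 16 and 17.

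**Figure D2:**
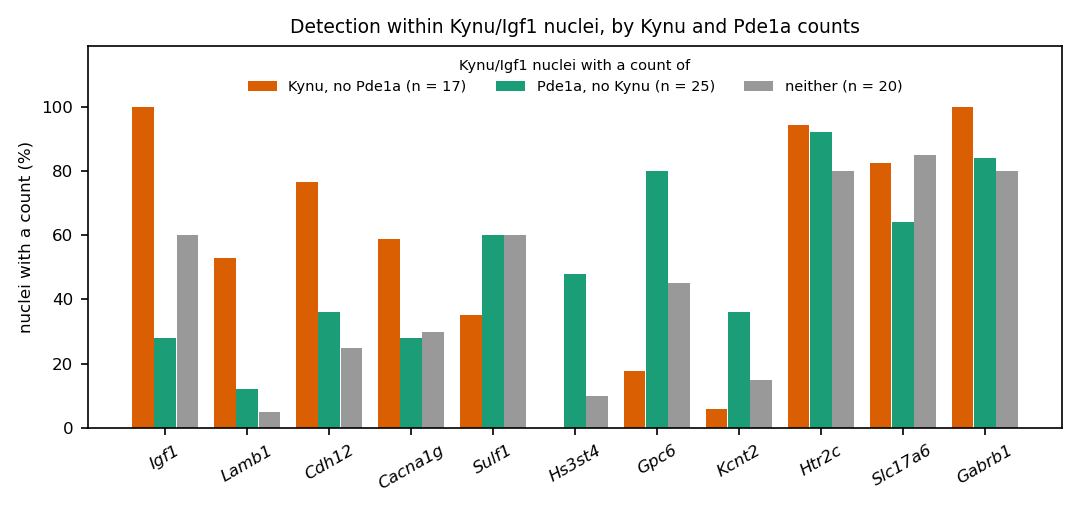
Percent of Kynu/Igf1 nuclei with a count of each gene shown, for 17 nuclei with Kynu and no Pde1a, 25 with Pde1a and no Kynu, and 20 with neither. Igf1, Lamb1 and Cdh12 were most often counted in the Kynu nuclei, and Hs3st4 and Gpc6 in the other kinds, while Htr2c, Slc17a6 and Gabrb1 were counted in most nuclei of all 3. Igf1 and Sulf1 are genes of the rule, which shapes their split.

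Markers of glutamatergic nuclear neurons were present, and the label vglut2 held for the members. Slc17a6, the vesicular glutamate transporter vGluT2 (chromosome 7, 51622006 to 51671119, plus strand), was counted in 49 of 64 members. It had 175, 219, 296 and 589 CPM in Kynu/Igf1 nuclei, against 175, 201, 240 and 262 CPM in the other vglut2 nuclei and 29.8 CPM in the nuclei outside the table. The groups overlapped and the difference did not pass (log2 fold change 0.44, SE 0.20; edgeR quasi-likelihood test, p adjusted by Benjamini-Hochberg over every tested gene, adjusted p = 0.197). Slc17a7, the transporter vGluT1, had 4 counts in all members together.

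Markers of other cell types were summed per library. The 5 inhibitory markers summed to 0 to 72.6 CPM per library in members and 28.2 to 95.1 CPM in the other vglut2 nuclei. Gad1 was higher in pooled members, at 19.9 CPM against 12.8 CPM in the pooled others. Gad2, Slc32a1 and Slc6a5 were lower, at 18.0, 11.4 and 2.23 CPM against 20.9, 14.7 and 19.6 CPM. Pax2 was at 0 in members and at 4.22 CPM in the pooled others, too low a level to compare. Oligodendrocyte markers, 6 of 6 in the table, summed to 143 to 628 CPM in members and 68.3 to 201 CPM in the others, and were higher in members in 4 of 4 libraries. Astrocyte markers, 5 of 5, summed to 22.4 to 143 CPM in members and 16.8 to 40.3 CPM in the others, also higher in 4 of 4. Slc1a2 was at 46.5 CPM in pooled members and 12.6 CPM in the others, and Aqp4, Slc1a3 and Gja1 were higher in members too. Aldh1l1 was at 0 in members and 1.34 CPM in the others, too low a level to compare. In the nuclei outside the table these sums were 11041 to 12473 CPM for oligodendrocytes and 1480 to 1804 CPM for astrocytes. Granule cell markers, 4 of 4, summed to 30.4 to 95 CPM in members and 20.8 to 50 CPM in the others, higher in members in 4 of 4 libraries, and to 91.5 to 125 CPM outside the table. Unipolar brush cell markers, 4 of 4, were not low, at 531 to 1019 CPM in members, 777 to 1002 CPM in the others and 392 to 489 CPM outside the table. Eomes, their defining transcription factor, was at 0 in members, 0.64 CPM in the others and 0.249 CPM outside the table, too low a level to compare. Markers of molecular layer interneurons, 4 of 4, summed to 153 to 390 CPM in members and 165 to 199 CPM in the others, higher in 3 of 4, against 766 to 905 CPM outside the table. Of these last markers Sorcs3 and Ptprk were higher in pooled members, at 239 and 57.8 CPM against 41.6 and 37.6 CPM in the others. Cdh22 and Prkcd were lower, at 19.6 and 2.03 CPM against 94.6 and 12.1 CPM. Sorcs3 and Cdh22 are also described with the genes below. The part of RNA from other cells in the results below was not tested.

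Kynu/Igf1 nuclei differed from the other vglut2 nuclei at 577 of 7275 genes tested outside the 22 set genes, or 7.93% (edgeR quasi-likelihood test with the library as block, Benjamini-Hochberg adjusted p under 0.05). Of these, 248 were higher (3.41%) and 329 were lower (4.52%). Higher genes included those of calcium and potassium channels, GABA receptors, a serotonin receptor and a semaphorin. Lower genes included Esrrg, Kcnc2, Crhr1, Spp1, neurofilaments and perineuronal net genes. The counts of higher and lower genes fell to 160 and 175 without vGluT2-Cre replicate 1, the higher count to 162 without Ucn3-Cre replicate 1 and the lower count to 194 without vGluT2-Cre replicate 2. Among nuclei of 2000 to 10000 counts, an alternative chosen after seeing the data because members were shallower, 44 genes were higher and 39 lower of 3500 tested. It kept 79 of the 410 calls that could be tested there, and 3 of the 410 had the opposite sign. Of the genes named in this comparison as higher or lower, those that passed in the window were Fnbp1l, Atp2b4, Adamtsl1, Sorcs3, Fstl5, Ccbe1, Pde4b, Gpc6, Kcnc2, Kcnq5, Cacna1e, Scn8a, Fgf13, Sema6d, Epha6, Ntng1, Cntn5, Cntnap4, Cdh12, Esrrg, Pbx3 and Tnr. Each of the others had too few counts to be tested there or did not pass. Those that did not pass with DESeq2 were Crhr1, Fgf9, Gabbr2, Gabrg3, Grik4, Grin2a, Hs3st4, Ndst4, Nefh, Onecut2, Pde7a, Sema6a, Gpc5, Ryr2, Ryr3, Pbx3, Nfia, Sox5, Meis1, Mef2c and Bcan.

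Among the genes with the highest fold changes were Fxyd6, Lamb1 and Adamtsl1. Fxyd6, a regulator of the sodium-potassium pump (chromosome 9, 45370185 to 45396159, plus strand), had 23.3, 73.1, 62.6 and 63.1 CPM in members, against 1.69, 5.81, 4.03 and 8.07 CPM in the other vglut2 nuclei. Every member library lay above the highest of the others (log2 fold change 3.58, SE 0.45; edgeR adjusted p = 3e-12). Lamb1 averaged 54.6 ± 35.3 CPM in members and 4.94 ± 2.4 CPM in the others (SD, n = 4 each; log2 fold change 3.14). Fxyd6 and Lamb1 rested on 25 and 21 counts in members and 25 and 26 in the others. Adamtsl1, a secreted ADAMTS-like protein, averaged 90.4 ± 18.6 CPM in members and 16.9 ± 2.61 CPM in the others, and its fold change held in the depth window (2.46 in all nuclei, 2.43 in the window). It stood at 146 CPM in the nuclei outside the table.

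Atp2b4, a plasma membrane calcium pump, averaged 137 ± 66.8 CPM in members and 19.9 ± 4.44 CPM in the others (log2 fold change 2.57). Fnbp1l, which links membrane curvature to actin, averaged 156 ± 32.7 CPM in members and 24.1 ± 10.4 CPM in the others (2.57), and Bex1, a small adaptor protein, 73.6 ± 25.2 CPM and 13.1 ± 3.73 CPM (2.51). In the depth window the log2 fold changes were 1.32 for Atp2b4, 1.44 for Fnbp1l and 1.43 for Bex1, the last no longer past the threshold (edgeR adjusted p = 0.0702). Sorcs3, a sorting receptor of the Vps10 family, averaged 177 ± 108 CPM in members and 40.5 ± 24.5 CPM in the others, and Fstl5, a follistatin-like secreted protein, 368 ± 198 CPM and 90.3 ± 12.6 CPM. Both were higher in 4 of 4 libraries, as the rule that named them requires.

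The 10 genes with the lowest fold changes had 2 to 20 counts each in members. Actn2, an actin cross-linker, had 2 counts in members against 54.2 to 79.1 CPM per library in the other vglut2 nuclei, a ratio of pooled levels of 0.0708 (95% exact interval 0.00854 to 0.258). Spp1, the secreted matrix protein osteopontin (chromosome 5, 104435118 to 104441050, plus strand), had 35, 87.7, 25.1 and 21 CPM in members, against 159, 316, 158 and 311 CPM in the others. Every member library lay below the lowest of the others (log2 fold change -2.44, SE 0.32; edgeR adjusted p = 1.36e-11). Aff1, a subunit of a transcription elongation complex, averaged 13.8 ± 22.3 CPM in members and 158 ± 30 CPM in the others.

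Rbm20, a splicing regulator, averaged 41 ± 28.2 CPM in members and 239 ± 36.9 CPM in the others, Ccbe1, a secreted calcium-binding protein, 23.1 ± 26.7 CPM and 167 ± 10.1 CPM, and Lrmda 23.9 ± 19.5 CPM and 147 ± 15.6 CPM. The others named by the rule for this end were Sv2c, a synaptic vesicle protein (log2 fold change -2.50), Ddo, D-aspartate oxidase (-2.90), Adamts3, a procollagen protease (-2.33), and Clca4a (-3.08). All 10 were lower in members in 4 of 4 libraries, as the rule that named them requires. Clca4a did not pass without the library block (adjusted p = 0.111).

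**Figure D3:**
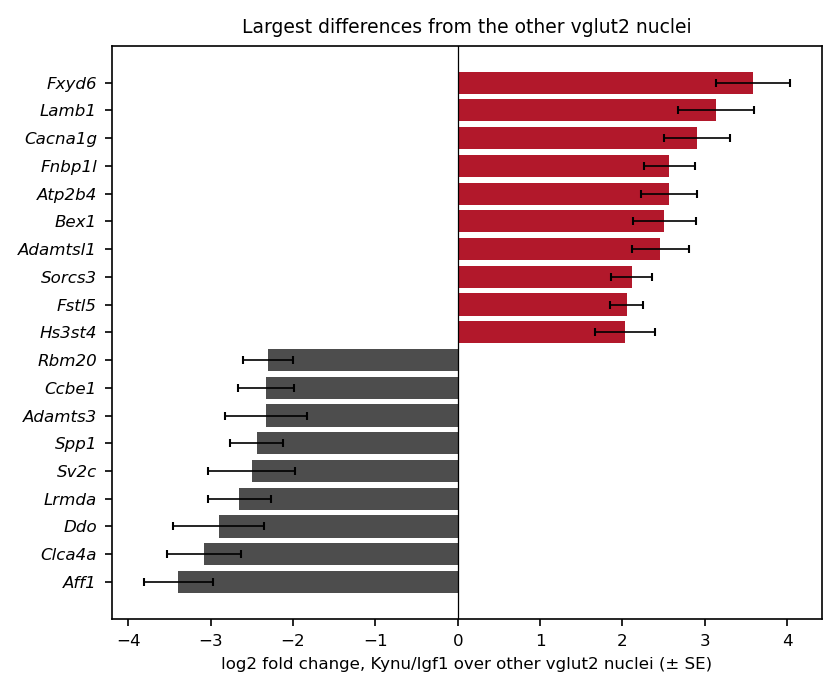
Log2 fold change of Kynu/Igf1 over other vglut2 nuclei, with its standard error, for 19 of the 20 genes at either end (Actn2, with 2 counts in members, has no fitted fold here). Fxyd6 stood at 3.58 among the genes higher in members and Aff1 at -3.39 among those lower.

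A T-type and the R-type calcium channel gene were higher in Kynu/Igf1 nuclei. Cacna1g, the T-type channel Cav3.1, which opens near rest and carries rebound firing (chromosome 11, 94408391 to 94474198, minus strand), had 58.3, 73.1, 71 and 63.1 CPM in members, against 13.6, 5.08, 6.72 and 15.3 CPM in the other vglut2 nuclei. Members did not overlap with the others (log2 fold change 2.91, SE 0.40; edgeR adjusted p = 2.03e-10). The gene rested on 30 counts in members, too few to judge how even the libraries were. It was counted in 35.9% of members, 8.65% of the other vglut2 nuclei and 1.08% of the nuclei outside the table. Cacna1e, the R-type channel, averaged 217 ± 49.8 CPM in members and 54.1 ± 16.2 CPM in the others, and remained past the threshold in the depth window (log2 fold change 1.94 in all nuclei, 1.32 in the window), where Cacna1g had too few counts to be tested.

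The T-type genes Cacna1h and Cacna1i did not pass (log2 fold changes -0.77 and 0.92; edgeR adjusted p = 0.514 and 0.186). Among the 26 sodium, calcium and HCN channel genes tested, 2 were higher (7.69%, against 3.41% over all genes tested) and 6 lower (23.1%, against 4.52%), with a median log2 fold change of -0.21 against -0.02 over all genes tested. The lower ones included Cacna2d3, an auxiliary calcium channel subunit (-1.32), Scn8a, the sodium channel Nav1.6 (-0.85), Cacnb4, another auxiliary subunit (-0.82), and the ryanodine receptor genes Ryr2 (-0.72) and Ryr3 (-0.69). In the depth window Cacna2d3 was at -0.75 (adjusted p = 0.176). Ryr3 did not pass without Ucn3-Cre replicate 2 or either vGluT2-Cre library (edgeR adjusted p = 0.0919 to 0.0991), nor Ryr2 without Ucn3-Cre replicate 1 or vGluT2-Cre replicate 1 (0.12 and 0.0739).

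Of 26 potassium channel genes tested, 6 were higher in members (23.1%, against 3.41% over all genes tested) and 4 lower (15.4%, against 4.52%). Kcnq5, a subunit of the M current, had 373, 307, 543 and 316 CPM in Kynu/Igf1 nuclei, against 127, 92.2, 110 and 125 CPM in the other vglut2 nuclei. No library of the others reached the lowest member value (log2 fold change 1.85, SE 0.20; edgeR adjusted p = 8.88e-17), and the value was 1.05 in the depth window. Kcnc2, the fast delayed rectifier Kv3.2, went the other way, with 35, 132, 113 and 0 CPM in members, against 407, 298, 333 and 324 CPM in the others. It was at -2.02 in all nuclei (SE 0.25; edgeR adjusted p = 3.69e-12) and at -2.51 in the depth window.

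The other potassium channel genes that were higher were Kcnb2, a delayed rectifier (log2 fold change 1.69), Kcnip1, an A-type channel partner (1.39), Kcnj6, an inward rectifier gated by G proteins (1.29), Kcnt2 (2.24) and Kcnc4 (1.81). The lower ones included Kcnip4, another A-type partner (-1.25), and Kcna1 (-1.12). Within the Kv3 family Kcnc4 was thus higher while Kcnc2 was lower. Kcnc4 and Kcnt2 rested on 20 and 14 counts in members, and Kcnt2 did not pass without vGluT2-Cre replicate 2 (edgeR adjusted p = 0.0552), nor Kcnj6 without vGluT2-Cre replicate 1 (0.105).

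**Figure D4:**
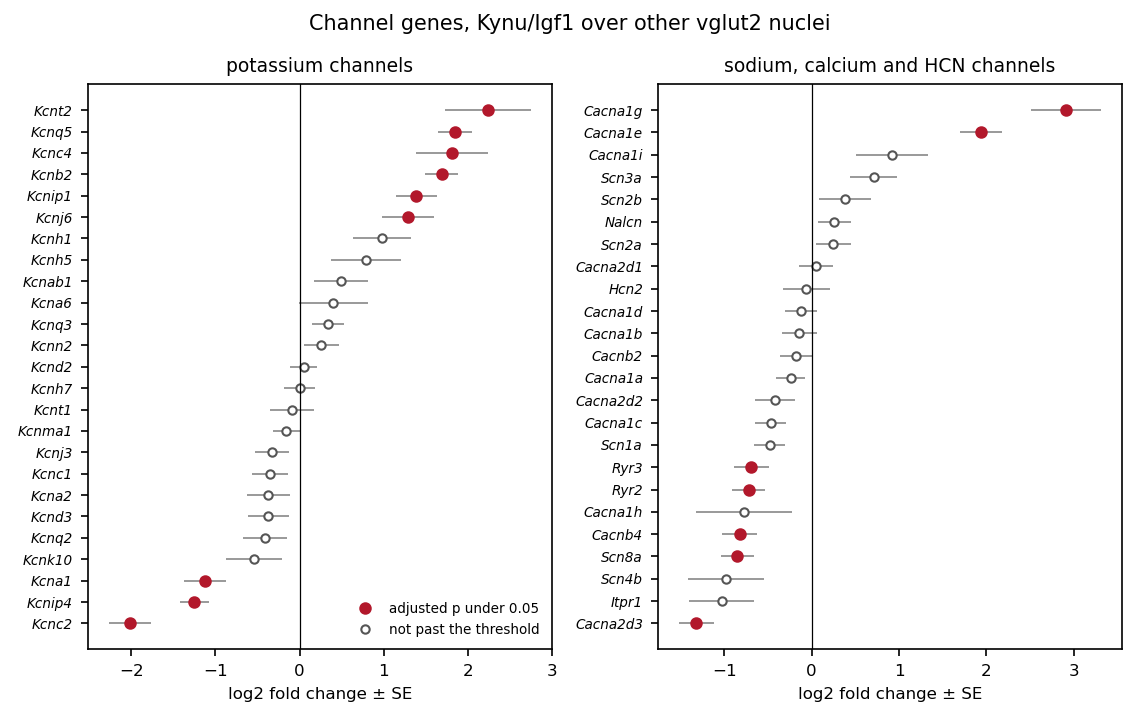
Log2 fold change of Kynu/Igf1 over other vglut2 nuclei with its standard error, for genes of potassium channels and of sodium, calcium and HCN channels. Filled points passed the adjusted threshold of 0.05. Cacna1g at 2.91 and Cacna1e at 1.94 lay at the high end of their panel, and Kcnc2 at -2.02 at the low end of its own.

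Receptors for serotonin and corticotropin-releasing factor went in opposite directions. The series title concerns satiation, and both receptors are known for effects on feeding. Htr2c, the serotonin 2C receptor (chromosome X, 146962513 to 147197277, plus strand), had 1003, 775, 1203 and 568 CPM in Kynu/Igf1 nuclei, against 527, 438, 521 and 473 CPM in the other vglut2 nuclei. The groups did not overlap (log2 fold change 0.88, SE 0.17; edgeR adjusted p = 1.44e-05). It was counted in 87.5% of members, 81.2% of the other vglut2 nuclei and 3.78% of the nuclei outside the table. In the depth window the difference was 0.50 and did not pass (adjusted p = 0.173).

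Crhr1, a receptor for corticotropin-releasing factor and urocortin 1 (chromosome 11, 104132855 to 104175523, plus strand), had 35, 58.5, 16.7 and 0 CPM in Kynu/Igf1 nuclei, against 79.7, 89.3, 76.7 and 75.1 CPM in the other vglut2 nuclei. No member library reached the lowest of the others (log2 fold change -1.63, SE 0.41; edgeR adjusted p = 0.00225). It rested on 11 counts in members, and did not pass without vGluT2-Cre replicate 1 (-1.19, adjusted p = 0.221), with DESeq2 (0.119) or with a score of at least 0.5 (0.101). Of the 32 receptor genes listed, 6 could be tested, and Htr2c and Crhr1 were those that passed. Each is 16.7% of the 6, against 3.41% higher and 4.52% lower over all genes tested. Ucn3 was not analysed here. YFP, as the tables call it, had 0, 43.9, 87.7 and 105 CPM in members, against 20.3, 16.7, 52.4 and 35.5 CPM in the others, and did not pass (edgeR adjusted p = 0.221).

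Some genes for GABA receptors were higher in members. Gabrb1, a GABA-A receptor subunit, had 397, 453, 497 and 358 CPM in Kynu/Igf1 nuclei, against 180, 125, 214 and 163 CPM in the other vglut2 nuclei. Member libraries all lay above the others (log2 fold change 1.34, SE 0.19; edgeR adjusted p = 1.02e-09). The GABA-B receptor genes Gabbr1 and Gabbr2 averaged 253 ± 53.3 and 245 ± 43.4 CPM in members, against 131 ± 6 and 151 ± 21.9 CPM in the others. Of 13 genes tested 4 were higher (30.8%, against 3.41% over all genes tested) and 0 lower (0%, against 4.52%), with a median log2 fold change of 0.28. In the depth window 0 passed, with Gabrb1 at 0.45 (adjusted p = 0.371) and Gabbr1 at 0.79 (0.062). Gabrg3 was higher in 3 of 4 libraries and did not pass without vGluT2-Cre replicate 1 or 2 (0.257 and 0.198), and Gabbr2 did not pass without any 1 of the 4 libraries (0.0533 to 0.227). Gabrb1 stood at 1199 CPM in the nuclei outside the table, the highest of the 3 groups.

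Of 20 glutamate receptor genes 0 were higher (0%, against 3.41% over all genes tested) and 3 lower (15%, against 4.52%). The lower ones included the kainate subunit gene Grik4 (log2 fold change -0.72) and the NMDA subunit gene Grin2a (-0.57), with adjusted p of 0.0227 and 0.0409 by edgeR. Neither passed when any 1 of the 4 libraries was left out (0.0527 to 0.27 over these).

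Of 9 IGF signalling genes tested, 1 was higher (11.1%, against 3.41% over all genes tested) and 0 lower (0%, against 4.52%), with a median log2 fold change of 0.11. The higher gene was Grb10, an adaptor that binds and restrains the insulin and IGF1 receptors, with 268, 190, 267 and 210 CPM in Kynu/Igf1 nuclei, against 96.6, 108, 114 and 105 CPM in the other vglut2 nuclei. The groups did not overlap (log2 fold change 1.17, SE 0.21; edgeR adjusted p = 4.54e-06), though in the depth window it was 0.68 (adjusted p = 0.134). Igf1r, the receptor of the Igf1 product, averaged 223 ± 74.7 CPM in members and 208 ± 15.4 CPM in the others (SD, n = 4 each; log2 fold change 0.11, SE 0.21; edgeR adjusted p = 0.872). Its sign turned to -0.13 without Ucn3-Cre replicate 1.

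Of the kynurenine pathway 1 gene of 11 listed could be tested, Kyat1, a kynurenine aminotransferase, at -0.00 (SE 0.56). Of 24 cyclic nucleotide genes 2 were higher (8.33%, against 3.41% over all genes tested) and 1 lower (4.17%, near the 4.52% over all genes tested). Prkg1, the cGMP-dependent protein kinase, averaged 338 ± 96.9 CPM in members and 133 ± 42.7 CPM in the others (log2 fold change 1.36, and 0.53 in the depth window, where it did not pass). Lmx1a/Pax6 nuclei alone averaged 348 ± 180 CPM of Prkg1. Pde4b, a cAMP phosphodiesterase, averaged 586 ± 143 CPM in members and 318 ± 47.3 CPM in the others, and passed in the depth window too (0.83 and 0.93). It did not pass with a score of at least 0.5 (0.64, adjusted p = 0.117) or with at least 2 of the 5 set genes (0.69, 0.0709), and stood at 3813 CPM in the nuclei outside the table. Pde7a, another cAMP phosphodiesterase, was lower (-0.90) and did not pass without Ucn3-Cre replicate 1 or vGluT2-Cre replicate 1 (edgeR adjusted p = 0.207 and 0.167).

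Of 20 heparan sulphate and glypican genes 2 were higher (10%, against 3.41% over all genes tested) and 3 lower (15%, against 4.52%). Gpc6 had 467, 380, 380 and 210 CPM in Kynu/Igf1 nuclei, against 929, 843, 1322 and 953 CPM in the other vglut2 nuclei. Member libraries all lay below the others (log2 fold change -1.48, SE 0.19; edgeR adjusted p = 3.49e-12), and the depth window gave -1.55. Gpc5, another glypican (-0.81), and Hs3st5, a 3-O-sulphotransferase (-1.14), were also lower. Hs3st4 (2.03) and Ndst4, which starts sulphation of the chains (0.81), were higher. Hs3st4 did not pass without Ucn3-Cre replicate 2 (adjusted p = 0.156), nor Ndst4 without Ucn3-Cre replicate 1, Ucn3-Cre replicate 2 or vGluT2-Cre replicate 2 (0.0653, 0.473 and 0.073). Gpc5 did not pass without either Ucn3-Cre library or vGluT2-Cre replicate 2 (0.0625 to 0.253).

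Among axon guidance genes, Sema6d, a transmembrane semaphorin (chromosome 2, 124089969 to 124667770, plus strand), was high throughout. It had 630, 951, 927 and 800 CPM in Kynu/Igf1 nuclei, against 293, 214, 265 and 224 CPM in the other vglut2 nuclei. The groups did not overlap (log2 fold change 1.74, SE 0.17; edgeR adjusted p = 2.25e-19), and the depth window gave 1.39 (6.91e-05). Of 27 genes tested 4 were higher (14.8%, against 3.41% over all genes tested) and 2 lower (7.41%, against 4.52%). The others higher were Dcc, the netrin receptor (0.92), Plxna2, a semaphorin receptor (0.94), and Sema6a, higher in 3 of 4 libraries (1.01; adjusted p = 0.0502 without Ucn3-Cre replicate 1 and 0.476 without vGluT2-Cre replicate 1). Epha6, an ephrin receptor, and Ntng1, which encodes netrin-G1, were lower (-1.06 and -0.83).

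Of 45 cadherin and synaptic adhesion genes 7 were higher (15.6%, against 3.41% over all genes tested) and 9 lower (20%, against 4.52%), with a median of -0.01. Cdh11 averaged 123 ± 14.7 CPM in members and 50.6 ± 11.3 CPM in the others (log2 fold change 1.42), and was at an adjusted p of 0.0545 by edgeR without vGluT2-Cre replicate 1. Cntn5, a contactin, averaged 2015 ± 145 CPM in members and 995 ± 181 CPM in the others (1.04). Cdh22 averaged 17.6 ± 14.5 CPM in members and 102 ± 26.8 CPM in the others (-2.10), Cntnap4, a neurexin relative, 122 ± 54.4 CPM and 377 ± 54.8 CPM (-1.56), and Cdh12 137 ± 75.8 CPM and 362 ± 39.2 CPM (-1.34). In the depth window Cntnap4 and Cdh12 still passed, at -1.37 and -1.07.

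Of 28 transcription factor genes tested 5 were higher (17.9%, against 3.41% over all genes tested) and 5 lower (17.9%, against 4.52%). Esrrg, the estrogen-related receptor gamma, an orphan nuclear receptor known for its part in energy metabolism (chromosome 1, 187608791 to 188214885, plus strand), had 653, 497, 614 and 253 CPM in Kynu/Igf1 nuclei, against 1768, 1758, 1754 and 1675 CPM in the other vglut2 nuclei. The others varied by little and lay far above every member value (log2 fold change -1.74, SE 0.18; edgeR adjusted p = 5.24e-18), and the depth window gave -1.39 (6.91e-05). Onecut2, a cut-homeodomain factor, had 1 count in members against 31.2 to 37 CPM in the others (ratio of pooled levels 0.0728, 95% exact interval 0.00183 to 0.412), and did not pass without vGluT2-Cre replicate 1 (adjusted p = 0.171). Sox5 (-1.29), Pbx3 (-0.87) and Nfia (-0.84) were lower too. Without vGluT2-Cre replicate 1 none of these passed (0.332, 0.0557 and 0.573), nor did Pbx3 and Nfia without vGluT2-Cre replicate 2 (0.0661 and 0.0716) or Nfia without Ucn3-Cre replicate 2 (0.112).

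Nr2f1, an orphan nuclear receptor also called COUP-TFI, averaged 101 ± 44.6 CPM in members and 34 ± 9.74 CPM in the others (log2 fold change 1.54). Foxp1, a forkhead factor, averaged 262 ± 72.5 CPM in members and 114 ± 14 CPM in the others (1.31), and Mef2c (0.80) and Meis1 (0.62) were higher as well. Mef2c did not pass without either Ucn3-Cre library or vGluT2-Cre replicate 1 (edgeR adjusted p = 0.149 to 0.235), nor Meis1 without Ucn3-Cre replicate 1 or either vGluT2-Cre library (0.0941 to 0.181).

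Of 10 neurofilament, axon and perineuronal net genes tested 0 were higher (0%, against 3.41% over all genes tested) and 5 lower in members (50%, against 4.52%). Their median log2 fold change was -0.82. Besides Spp1, the lower ones were the neurofilament subunit genes Nefh (-1.61) and Nefm (-1.24) and the net components Tnr (-1.09) and Bcan (-0.83). Tnr had 198, 161, 171 and 147 CPM in Kynu/Igf1 nuclei, against 381, 341, 377 and 354 CPM in the other vglut2 nuclei. Its groups did not overlap, and the depth window gave -1.12, while Nefm was at -0.40 there (edgeR adjusted p = 0.707). Nefh did not pass without vGluT2-Cre replicate 1 or 2 (0.199 and 0.0841), nor Bcan without replicate 1 of that line (0.0523). Nefl, the light subunit, was at -0.35 and did not pass.

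Of 15 neuropeptide and growth factor genes 2 were higher (13.3%, against 3.41% over all genes tested) and 3 lower (20%, against 4.52%). Scg2, secretogranin II of dense-core vesicles, averaged 166 ± 76.8 CPM in members and 70.3 ± 20.1 CPM in the others (log2 fold change 1.22, and 0.50 in the depth window, where it did not pass). Fgf13, an intracellular partner of sodium channels, averaged 247 ± 89.5 CPM in members and 132 ± 22.6 CPM in the others (1.04, and 1.11 in the depth window), with an adjusted p of 0.183 by edgeR without vGluT2-Cre replicate 1. Its relative Fgf12 was lower (-1.02). Fgf9 was lower too (-1.32), and did not pass without Ucn3-Cre replicate 1, Ucn3-Cre replicate 2 or vGluT2-Cre replicate 2 (0.291, 0.228 and 0.145).

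Of 4 mitochondrial transcripts tested 4 were higher (100%, against 3.41% over all genes tested), but they differed by library. mt-Atp6 had 0, 219, 75.2 and 231 CPM in members, against 0, 10.9, 10.8 and 34.7 CPM in the others, so that both groups were at 0 in Ucn3-Cre replicate 1 and the difference rests on the other 3. The transcripts stood at 505 to 754 CPM in the nuclei outside the table. In the depth window mt-Co1 turned to -0.33. Of the immediate early genes 1 of 14 could be tested, Homer1, which did not pass (0.14).

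The next comparisons set the members against Maf/Kitl, Lmx1a/Pax6 and Rorb/Sema3a nuclei, to see which differences held against each of them. Zfhx3/Zfhx4 nuclei were not compared, with 1 nucleus in Ucn3-Cre replicate 1 and 37 in all. They share the member sums, so their results are not independent. Against Maf/Kitl nuclei 649 of 5810 genes differed (11.2%), with 321 higher (5.52%) and 328 lower (5.65%). Against Rorb/Sema3a nuclei 346 differed (5.96%), with 161 higher (2.77%) and 185 lower (3.18%), and against Lmx1a/Pax6 nuclei 174 (2.99%), with 91 higher (1.57%) and 83 lower (1.43%). Whether these counts differ was not tested, and group size and depth differ too, with medians of 6053 counts in Kynu/Igf1, 10507 in Maf/Kitl, 8967 in Rorb/Sema3a and 7528 in Lmx1a/Pax6 nuclei. Without vGluT2-Cre replicate 1 the Maf/Kitl counts were 185 and 200, and the Lmx1a/Pax6 counts 51 and 48. Without Ucn3-Cre replicate 2 they were 57 and 51 for Lmx1a/Pax6 and 83 and 105 for Rorb/Sema3a. The Rorb/Sema3a counts were 106 and 115 without Ucn3-Cre replicate 1, its higher count 99 without vGluT2-Cre replicate 1, and the lower Lmx1a/Pax6 count 55 without vGluT2-Cre replicate 2.

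Several genes stood apart from each of the 3 groups. Sema6d averaged 818 ± 148 CPM in Kynu/Igf1 nuclei, against 210 ± 65.3 in Maf/Kitl, 372 ± 48.4 in Lmx1a/Pax6 and 296 ± 69.2 CPM in Rorb/Sema3a nuclei (SD, n = 4 each). The log2 fold changes were 1.95, 1.16 and 1.50, with adjusted p of 5.79e-10, 0.000122 and 7.91e-07 by edgeR, and the lowest member library lay above the highest library of each other group. Esrrg averaged 496 ± 172 CPM in Kynu/Igf1 nuclei, against 1958 ± 154, 1292 ± 220 and 1462 ± 167 CPM in these groups. It was lower than in all 3 (log2 fold changes -1.89, -1.30 and -1.47).

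Htr2c was higher than in all 3 groups as well. It averaged 874 ± 259 CPM in Kynu/Igf1 nuclei, against 559 ± 59.8 in Maf/Kitl, 281 ± 107 in Lmx1a/Pax6 and 429 ± 178 CPM in Rorb/Sema3a nuclei (log2 fold changes 0.71, 1.76 and 1.14; edgeR adjusted p = 0.0245, 6.72e-06 and 0.000922). The lowest member library, at 575 CPM, overlapped with Maf/Kitl and Rorb/Sema3a nuclei and not with Lmx1a/Pax6 nuclei. Kcnq5 (2.83, 1.54 and 1.00), Cacna1e (2.34, 1.32 and 1.97), Fstl5 (2.22, 2.51 and 2.83) and Sorcs3 (1.55, 2.04 and 2.43) were higher in the same 3 comparisons. Kcnc2 was lower in all 3 (-1.34, -1.90 and -2.54).

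Other differences were found against some groups and not others. Crhr1 averaged 27.1 ± 24.9 CPM in Kynu/Igf1 nuclei, against 117 ± 22.3 in Maf/Kitl, 26.6 ± 4.58 in Lmx1a/Pax6 and 30.7 ± 10.3 CPM in Rorb/Sema3a nuclei (SD, n = 4 each). It was lower than in Maf/Kitl nuclei without overlap (log2 fold change -2.21; edgeR adjusted p = 3.76e-05), while the differences from Lmx1a/Pax6 and Rorb/Sema3a nuclei were -0.07 and -0.26 and did not pass (0.99 and 0.87). Nuclei with no score of 0.3 had 92 ± 8.72 CPM.

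Spp1 was lower than in Maf/Kitl (log2 fold change -2.90) and Rorb/Sema3a nuclei (-1.95) and not past the threshold against Lmx1a/Pax6 nuclei (-0.80; edgeR adjusted p = 0.516). Neurofilament and net genes were lower in 6 of 9 tested against Maf/Kitl nuclei, 3 of 9 against Rorb/Sema3a nuclei and 0 of 9 against Lmx1a/Pax6 nuclei, with medians of -0.83, -0.81 and -0.37. These are 66.7, 33.3 and 0%, against 5.65, 3.18 and 1.43% lower over all genes tested in the same comparisons. Gabrb1 was higher than in Maf/Kitl nuclei (1.86), and at 0.62 and 0.56 did not pass against Lmx1a/Pax6 and Rorb/Sema3a nuclei (0.221 and 0.183). Cntnap4 was lower than in Lmx1a/Pax6 and Rorb/Sema3a nuclei (-2.24 and -2.20) and at 0.38 did not pass against Maf/Kitl nuclei (0.479). Prkg1, Plxna2, Ndst4 and Hs3st4 were higher than in Maf/Kitl nuclei (2.34, 1.20, 2.69 and 2.78). Against Lmx1a/Pax6 nuclei they were at -0.00, 0.04, 0.09 and 0.18 and did not pass. Cacna2d3 was lower than in Maf/Kitl nuclei (-1.42) and at 0.07 did not pass against Lmx1a/Pax6 nuclei.

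Cacna1g was higher in members than in Maf/Kitl nuclei and rare in Rorb/Sema3a nuclei. It averaged 65.7 ± 6.94 CPM in Kynu/Igf1 nuclei, against 16.1 ± 9.49 in Maf/Kitl, 20.6 ± 11.6 in Lmx1a/Pax6 and 2.99 ± 5.99 CPM in Rorb/Sema3a nuclei, with no overlap in any library. The Rorb/Sema3a nuclei held 2 counts, a ratio of pooled levels of 25.8 (95% exact interval 6.54 to 223). The difference from Maf/Kitl nuclei passed (log2 fold change 2.26; edgeR adjusted p = 0.00313) and that from Lmx1a/Pax6 nuclei did not (1.87, 0.0641).

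**Figure D5:**
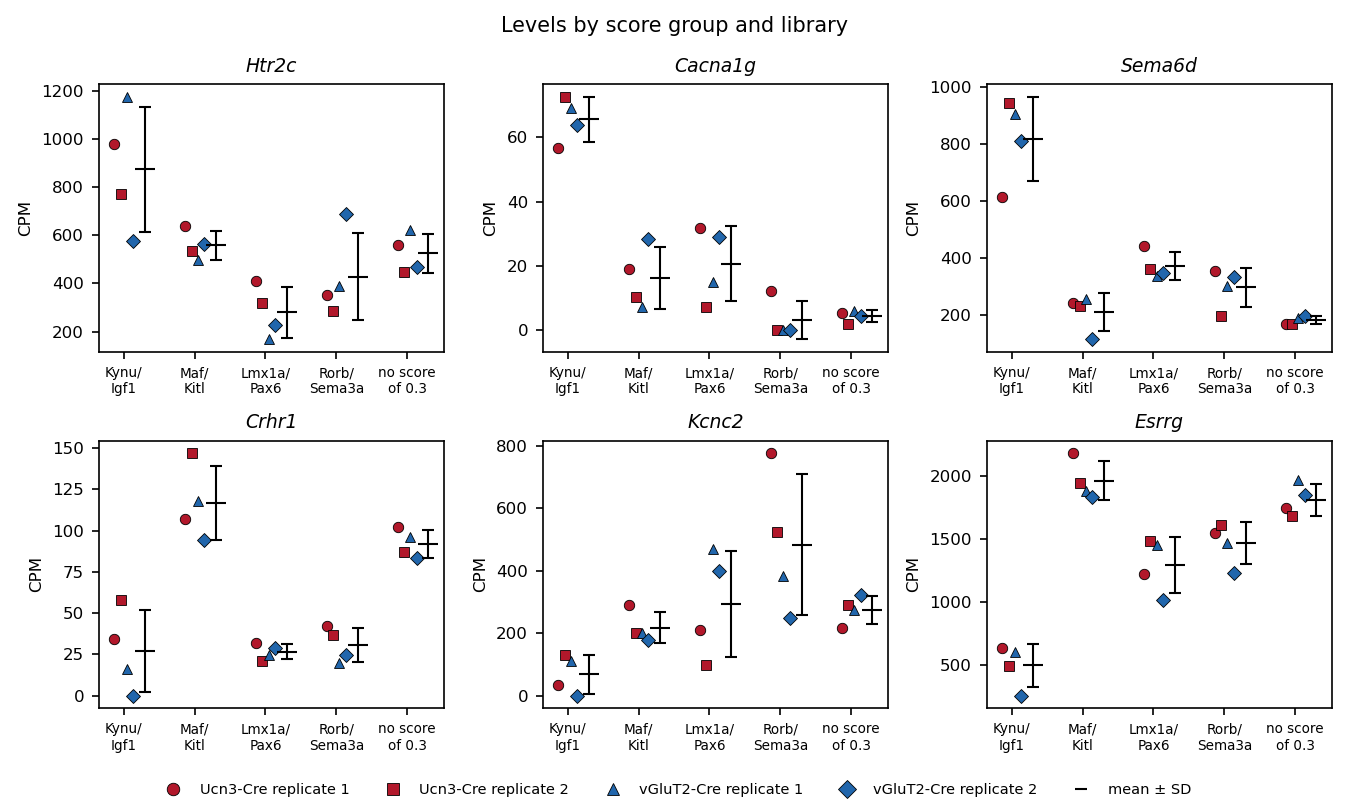
CPM of 6 genes per library in Kynu/Igf1, Maf/Kitl, Lmx1a/Pax6 and Rorb/Sema3a nuclei and in nuclei with no score of 0.3, with mean and SD over 4 libraries. Sema6d and Cacna1g lay above every other group in Kynu/Igf1 nuclei and Esrrg below, while Crhr1 lay at 27.1 CPM there, near Lmx1a/Pax6 and Rorb/Sema3a nuclei at 26.6 and 30.7 CPM.

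Each pair of groups also had genes of its own at the ends of the scale. Luzp2, a leucine zipper protein, averaged 489 ± 160 CPM in Kynu/Igf1 and 32.6 ± 25.9 CPM in Maf/Kitl nuclei, with 1068 CPM in the nuclei outside the table, and Kcnb2 454 ± 218 and 36.7 ± 27.3 CPM. Lmo3, a LIM-only transcriptional cofactor, averaged 160 ± 63.7 CPM in Kynu/Igf1 and 7.94 ± 10.2 CPM in Lmx1a/Pax6 nuclei, and Ankfn1 239 ± 113 and 39.5 ± 32.6 CPM. Fam19a2, a secreted chemokine-like protein, averaged 127 ± 47.9 CPM in Kynu/Igf1 and 580 ± 263 CPM in Lmx1a/Pax6 nuclei, and Pparg, a nuclear receptor, 10.6 ± 7.33 and 75.7 ± 25.8 CPM.

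Mbp, a myelin gene of the oligodendrocyte markers, averaged 92.8 ± 104 CPM in Kynu/Igf1 and 11.5 ± 16.1 CPM in Lmx1a/Pax6 nuclei, at 2449 CPM in the nuclei outside the table. Its highest member value was 247 CPM in Ucn3-Cre replicate 2, and it did not pass without that library (edgeR adjusted p = 0.105). Tmc1, a channel subunit known from inner ear hair cells, was lower than in Rorb/Sema3a nuclei (log2 fold change -4.42), where it ranged from 12 to 322 CPM, and did not pass without vGluT2-Cre replicate 1 (edgeR adjusted p = 0.129). Zfp57, a zinc finger protein of imprinted loci, averaged 52.6 ± 21.9 CPM in Kynu/Igf1 and 7.72 ± 11.8 CPM in Rorb/Sema3a nuclei. It did not pass without vGluT2-Cre replicate 1 or Ucn3-Cre replicate 2 (edgeR adjusted p = 0.105 and 0.269).

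Between the Cre lines no gene passed within the members. Of 1660 genes tested 0 had an adjusted p under 0.05 by edgeR (0%), 61 had an unadjusted p under 0.05, and DESeq2 called 1 higher and 1 lower. Slc17a6 had 179 and 236 CPM in the Ucn3-Cre libraries, against 291 and 650 CPM in the vGluT2-Cre libraries (log2 fold change -1.03, SE 0.45; edgeR adjusted p = 0.998). Htr2c had 1028 and 835 CPM in Ucn3-Cre, against 1181 and 627 CPM in vGluT2-Cre members (0.01, SE 0.38). Crhr1 had 35.9 and 63.1 CPM in Ucn3-Cre, against 16.4 and 0 CPM in vGluT2-Cre members, and had too few counts for a test. The SE over all genes had a median of 0.421 on the log2 scale, so small line differences were not detectable at this depth, and age differed between the lines too.

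Between the sexes 1 of 1660 genes passed (0.0602%). Xist, the RNA of the inactive X chromosome, had 1674 and 2251 CPM in female libraries, against 0 and 0 CPM in male libraries (edgeR adjusted p = 2.01e-05). The Y-linked genes Uty and Eif2s3y had 0 CPM in both female libraries, against 221 and 246 CPM and 142 and 258 CPM in male libraries, with adjusted p of 0.0535 and 0.116. The libraries thus matched their labelled sex. An unadjusted p under 0.05 was found for 48 genes, Xist included.

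Whether the difference between members and other vglut2 nuclei itself changed with the line or the sex was tested with an interaction term. It passed for 4 of 7275 genes by line (0.055%; edgeR adjusted p under 0.05, 290 unadjusted) and for 0 by sex (263 unadjusted). Cacna1g, Crhr1 and Htr2c were not among them (differences of log2 fold changes by line -0.05, 1.58 and 0.03; adjusted p = 0.999 each).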

How the data were processed

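Per the submitters' processing notes, Cell Ranger 3.1.0, Seurat 3.2 and the build mm10 were used. The deposited values are expected counts for 15632 genes per nucleus, per the file headers and the values, which mostly lie just below whole numbers, as after a background correction. The name of that step is not given in the sources used here. Values of the vglut2 table differed from the library tables by at most 0. The members, gene lists and tests were chosen with earlier results of these data known.

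Counts were summed per library and group (at least 5 nuclei), rounded, and tested with edgeR 4.0.16 in R 4.3.3 (filterByExpr, TMM, quasi-likelihood test, library as block; no block for line or sex), and p-values were adjusted by Benjamini-Hochberg over the genes of each fit, at 0.05. The 22 set genes were left out of calls. p-values were drawn from the same counts as the membership scores. Alternatives included DESeq2 1.42.0, other thresholds, depth limits and leaving out each library. Scripts were tested on simulated data. Scrublet (scanpy 1.11.5) marked 37 of 21494 nuclei automatically, so the highest 0.8% per 1000 nuclei of a library, 947 in all, were taken as doublets and removed in 1 alternative. Positions are those of GENCODE on GRCm38.

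Named genes were the 10 highest and 10 lowest fold changes past the threshold, with 4 of 4 libraries in 1 direction and at least 50 CPM in the higher group, outside gene models, up to 4 per list, and a fixed few. Against each score group the number was 5 per direction. Other genes named from a list were those of the list past the threshold or its close relatives, and some genes are not reported here. Shares carry 95% Clopper-Pearson intervals (scipy 1.17.1, Python 3.11.15). For genes with 3 or fewer counts in a group, ratios of pooled CPM with exact intervals replace fitted folds. A limit for 0 nuclei is 3 nuclei of the total.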

Additional observations from a re-analysis of the deposited data

Results flagged for a closer look

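In 4 genes the difference between Kynu/Igf1 and other vglut2 nuclei changed with the Cre line, by an interaction term in edgeR (difference of log2 fold changes, Ucn3-Cre minus vGluT2-Cre, adjusted over 7275 genes). Hs3st4 had 128 and 234 CPM in Ucn3-Cre members against 1.69 and 2.9 CPM in the other nuclei of those libraries, and 45.9 and 84.2 CPM in vGluT2-Cre members against 45 and 52.5 CPM in theirs. Its difference was 6.01 (SE 0.75; adjusted p = 4.61e-08), and the other nuclei of the vGluT2-Cre line held more of it than those of the Ucn3-Cre line. Gm32647, a gene model, had 1108 and 1652 CPM in Ucn3-Cre members against 124 and 187 CPM in the other nuclei, and 376 and 442 CPM in vGluT2-Cre members against 286 and 150 CPM (2.36, SE 0.36; adjusted p = 2.19e-05). It was higher in members in 4 of 4 libraries.

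Col24a1, a fibrillar collagen, had 93.3 and 205 CPM in Ucn3-Cre members against 44.1 and 31.9 CPM in the other nuclei, and 12.5 and 21 CPM in vGluT2-Cre members against 51.1 and 11.3 CPM (3.63, SE 0.80; adjusted p = 0.0365). Over all libraries its difference did not pass (0.71; adjusted p = 0.316). The mitochondrial transcript mt-Co1 had 0 and 424 CPM in Ucn3-Cre members against 0 and 38.5 CPM, and 50.1 and 105 CPM in vGluT2-Cre members against 30.9 and 69.4 CPM (2.79, SE 0.58; adjusted p = 0.0192), so that it rests on Ucn3-Cre replicate 2 within that line. Line goes with age here, and the 2 cannot be told apart.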

How the results depend on the processing

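The counts of genes higher and lower in Kynu/Igf1 than in other vglut2 nuclei, 248 and 329 as reported, were 149 and 189 with no block for the library, 131 and 107 with DESeq2, 137 and 158 with a score of at least 0.5, 122 and 159 in members with at least 2 of the 5 set genes, and 44 and 39 in nuclei of 2000 to 10000 counts. The last 2 settings were chosen after seeing the data, and a score of 0.5 or at least 2 genes left vGluT2-Cre replicate 2 out, with fewer than 5 members. Leaving out 1 library gave 160 to 186 higher and 175 to 235 lower genes. DESeq2 kept 238 of the 577 calls and the fits without 1 library 295 of 550 to 383 of 575 that could be tested, with none in the opposite direction, and 3 of 410 had the opposite sign in nuclei of 2000 to 10000 counts. Of the 102 genes of the naming rule and the lists that were followed there, 30 lost their call with DESeq2, 23 without a library block, 28 with a score of 0.5, 27 with at least 2 genes, 46 of 78 testable ones in the depth window and 17 to 25 without 1 library. Igf1r ranged from -0.13 to 0.26 on leaving out 1 library, and mt-Co1 was -0.33 in the depth window. Against Lmx1a/Pax6 nuclei 133 genes were lower with no filterByExpr. Without 1 library, 185 to 253 genes were higher and 200 to 249 lower than in Maf/Kitl nuclei, 51 to 83 higher and 48 to 79 lower than in Lmx1a/Pax6 nuclei, and 83 to 153 higher and 105 to 156 lower than in Rorb/Sema3a nuclei. For the lines, 1 gene was higher and 1 lower with DESeq2, 1 was lower with no filterByExpr, and 0 to 5 were higher and 3 to 9 lower on leaving out 1 library. For the sexes, 2 were higher and 3 lower with no filterByExpr, 0 higher with genes counted in every library, 1 lower with a score of 0.2, and 1 to 3 higher and 1 to 6 lower on leaving out 1 library, where a lone library is assumed to vary like the other group. The difference in share by line was -0.282, -0.703 and -1.56 percentage points with scores of 0.2 and 0.5 and z-scores within each library, and -6.86 to 6.92 without 1 library. By sex it was 0.695 with z-scores within each library and -7.2 to 6.02 without 1 library.

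Libraries that share a replicate number had deviations correlated at 0.0792 over 1665 genes in 2 pairs, and what the numbers mark is not stated. With the replicate block 1 gene was higher and 1 lower by line, and 2 higher and 2 lower by sex, with Uty and Eif2s3y at adjusted p of 7.87e-06 and 1.23e-05 by edgeR, and Xist by line, at -0.27 as fitted, was 0.78. On leaving out 1 library, which unbalances the sexes, Xist by line ranged from -9.86 to 9.79 and Uty from -7.41 to 0.30. Precision was limited by the 42693 to 233535 member counts per library. The causes of these changes were not tested.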

Other observations

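The deposited nucleus names hold a number that was the same for both replicates 2 and another one for each replicate 1, and what it marks is not stated in the labels. By the rule as stated, Kynu/Igf1 nuclei were 19.3 and 19.9% in replicates 1 and 6.71 and 6.10% in replicates 2, Ucn3-Cre first. With z-scores within each library they were 15.9 and 16.8% in replicates 1, and 8.72 and 11.0% in replicates 2. In the depth window they were 25.4 and 29.5% in replicates 1, and 10.0 and 22.7% in replicates 2. Both replicates 1 stayed above both replicates 2, but vGluT2-Cre replicate 2 was near Ucn3-Cre replicate 1 in the depth window. Both replicates 1 carry different numbers, and whether the number bears on the share was not tested.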
